A study of Mus musculus with 4 samples.

Results

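The 10 genes Trem2, Tyrobp, Apoe, Lpl, Cst7, Itgax, Clec7a, Spp1, Gpnmb and Axl are known as genes of disease-associated microglia. They were chosen by symbol, and all 10 were found among the 18674 gene names of the deposited table. RNA was taken from lumbar cord. The mice were either wild type (WT) or carried the G93A transgene, which encodes mutant human SOD1, in the high-expresser line kept on a B6/SJLF1 background. Each genotype was given spermidine (SD), a natural polyamine, or PBS as vehicle, 4 times a week for 30 days, and according to the methods was killed at 100 days of age. Each of the 4 conditions, called WT vehicle, G93A vehicle, WT + SD and G93A + SD, had 1 library. Differences between them therefore rest on single libraries without replicates, and no p-value is given. How many animals went into a library is not given in the sources used here, the treatment studies used males, and the labels enter the vehicle libraries as having no treatment. Values are RPKM, reads scaled to transcript length and to library depth, a unit inferred from the values. They can be compared between genes because they are per length.

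Microglia are the resident macrophages of the spinal cord. In healthy tissue they are recognised by surveillance genes such as P2ry12 and Cx3cr1, and around dying neurons, plaques or damaged myelin they switch on a lipid-handling, phagocytic and lysosomal set of genes that was named disease-associated. The switch is known to pass in part through the surface receptor TREM2 and its signalling adaptor TYROBP (DAP12), for which lipids and APOE are among the ligands. SOD1 transgenic cord is one of the tissues in which this state was described. In whole cord RNA a higher level can come from more cells or from more RNA per cell, and these cannot be told apart here.

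All 10 genes were higher in both G93A libraries than in both WT libraries. The ratio of G93A vehicle to WT vehicle lay between 3.37 (Apoe) and 186 (Cst7), and that of G93A + SD to WT + SD between 3.98 (Axl) and 445 (Cst7). A gene was called where the 2 libraries differed at least 1.5-fold. In G93A vehicle against WT vehicle, 10 of the 10 genes were called higher, against 20.7% of the 18237 names above 0 in either library, and the median log2 fold change was 3.78, against 0.060 over all names. In G93A + SD against WT + SD, 10 of 10 were again called higher, against 23.8% of all names, with a median of 3.84 beside 0.064. The 2 comparisons share no library. No member was called lower in either, while 10.5% and 12.8% of all names were. Of names averaging 1 RPKM or more the shares were 13.5% higher and 4.68% lower in the vehicle comparison, and 16.3% and 8.12% in the SD comparison, although Cst7, Itgax, Clec7a and Gpnmb pass that filter only through the G93A libraries. At a threshold of 2-fold 10 of 10 were again higher and 0 lower, beside 13.7% and 5.6% of all names for vehicle and 15.9% and 6.18% for SD.

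**Figure D1:**
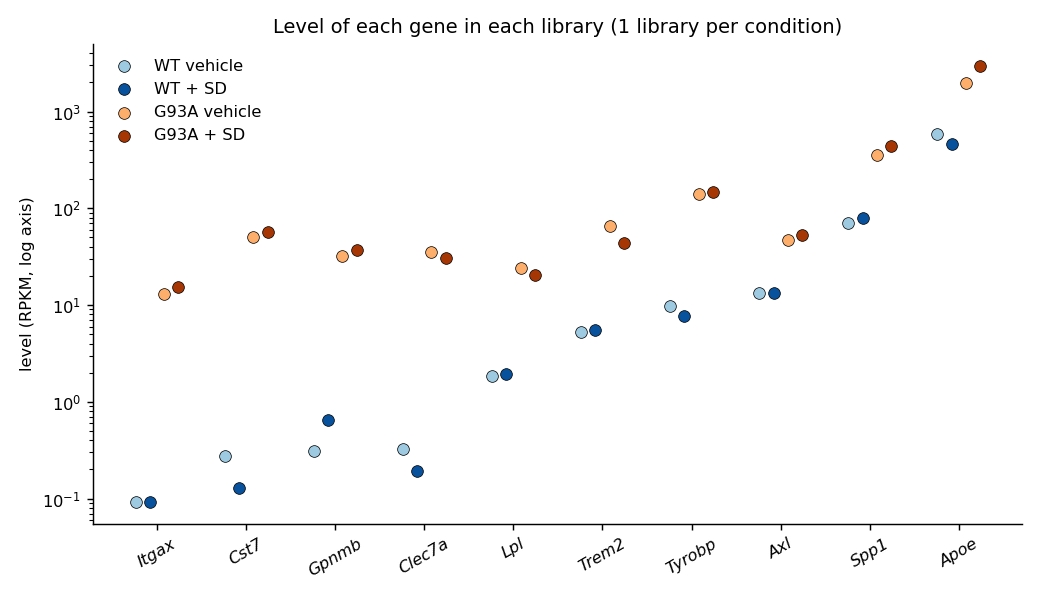
Level of each gene (RPKM, log axis) in the 4 libraries, 1 point per library, with the genes ordered by their level in WT vehicle. Itgax, Cst7, Gpnmb and Clec7a lay below 1 RPKM in both WT libraries and between 13.2 and 56.7 RPKM in the G93A libraries, and the distance between WT and G93A points narrows towards Apoe.

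The genes differed widely in their starting level. In WT vehicle Apoe was 6335 times as high as Itgax, whereas in G93A vehicle the highest member, again Apoe, was 150 times as high as the lowest, again Itgax. In both WT libraries 4 of the 10 genes were below 1 RPKM, and in the G93A libraries 0 were. In WT vehicle the level went up from Itgax, Cst7, Gpnmb and Clec7a, all below 1 RPKM, through Lpl, Trem2, Tyrobp, Axl and Spp1, between 1.87 and 70.1 RPKM, to Apoe at 586 RPKM. The 10 genes summed to 687 (vehicle) and 569 RPKM (SD) in WT cord and to 2738 and 3827 RPKM in G93A cord. Apoe alone made up between 72.1% and 85.3% of that sum in the 4 libraries, and without it the sums were 101, 109, 763 and 851 RPKM in the same order.

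Trem2, the receptor, and Tyrobp, the adaptor that carries its signal into the cell, were within 2-fold of each other in WT cord. Trem2 had 5.31 (vehicle) and 5.50 RPKM (SD) in WT cord and 65.1 (vehicle) and 43.9 RPKM (SD) in G93A cord. Tyrobp had 9.67 (vehicle) and 7.76 RPKM (SD) in WT cord and 139 (vehicle) and 149 RPKM (SD) in G93A cord. Both were high in the G93A libraries, but Trem2 was lower in G93A + SD than in G93A vehicle and Tyrobp was not. Trem2 was 12.3-fold higher between the vehicle libraries and 7.97-fold between the SD libraries. Tyrobp was 14.4-fold and 19.1-fold higher. The ratio of Trem2 to Tyrobp was 0.549 and, with SD, 0.709 in WT cord, and 0.467 and, with SD, 0.295 in G93A cord. TYROBP also serves other receptors, so that its level is not tied to that of TREM2.

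The genes that were nearly unread in WT cord had the largest ratios. Cst7 encodes cystatin F, an inhibitor of lysosomal cysteine proteases. It had 0.273 (vehicle) and 0.127 RPKM (SD) in WT cord and 50.7 (vehicle) and 56.7 RPKM (SD) in G93A cord. Its log2 fold change was 7.54 between the vehicle libraries and 8.80 between the SD libraries, and the second was the largest among the 17215 names above 0 in both SD libraries. Itgax encodes CD11c, the alpha chain of an integrin best known from dendritic cells. It had 0.0925 (vehicle) and 0.0923 RPKM (SD) in WT cord and 13.2 (vehicle) and 15.5 RPKM (SD) in G93A cord. These are log2 fold changes of 7.15 and 7.39, and the WT libraries were level with each other. Clec7a, the beta-glucan receptor Dectin-1, had 0.325 (vehicle) and 0.191 RPKM (SD) in WT cord and 35.3 (vehicle) and 30.6 RPKM (SD) in G93A cord. Gpnmb, a transmembrane glycoprotein of lysosomes and phagosomes, had 0.313 (vehicle) and 0.653 RPKM (SD) in WT cord and 32.3 (vehicle) and 37.1 RPKM (SD) in G93A cord. The WT and G93A libraries lay far apart for both genes. The log2 fold changes were 6.77 and 7.33 for Clec7a and 6.69 and 5.83 for Gpnmb. The WT values of these genes rest on few reads. About 9.89 read pairs were estimated behind Cst7 in WT vehicle and 4.81 in WT + SD, against 1902 and 2159 in the G93A libraries. For Itgax the estimates in WT were 13.8 and 14.3 pairs, for Clec7a 27.1 and 16.6, and for Gpnmb 42.6 and 92.6. The denominators of these large ratios are therefore uncertain. With a pseudocount of 1 RPKM, which understates the change of low genes, Cst7 had log2 fold changes of 5.34 and 5.68 and Itgax 3.70 and 3.92.

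Promoters of these genes are shown because the members moved together. RefSeq (GRCm38.p6) gave a promoter for 8 of the 10, from 250 bases before the start to 50 after it, with 1 window per gene at its most upstream start; Tyrobp and Lpl had none in the table. Motifs were searched on both strands. The letters TGANTCA, a form of the AP-1 site loosened to any middle base, were found in 4 of the 8 (Trem2, Cst7, Itgax and Gpnmb), and in 7.92% of 27025 promoters of all genes. The middle base was G in Itgax, C in Gpnmb, A in Trem2 and T in Cst7, and not all of these forms need be AP-1 sites. GGAAGT, a core of PU.1 and other ETS factors, was found in 3 of 8 (Cst7, Itgax and Spp1) and in 24.1% of all. The ETS and IRF composite, GGAA and GAAA with any 2 bases between them, was found in 1 (Clec7a) and in 2.79% of all, TATAAA in 1 (Spp1) and in 14.2%, and the E-box CACGTG in 0 and in 7.24%. GGAAGT can lie inside the composite, so that those matches can overlap. The upstream 250 bases are given below for Cst7 (chr2:150570165-150570414 on the plus strand), Itgax (chr7:128129300-128129549 on the plus strand) and Trem2 (chr17:48346151-48346400 on the plus strand), which hold TGANTCA there, and for Axl (chr7:25788734-25788983 on the minus strand), which holds none of the 5 motifs. For Gpnmb, whose match lies after the start, the first 30 bases from the RefSeq start are given (chr6:49036518-49036547 on the plus strand). Starts are those of RefSeq, and for Gpnmb and Axl they lie 28 bases upstream of the GENCODE M21 gene start, so that by GENCODE the Gpnmb match lies before the start. Capitals mark the matches, and each sequence is written 5′ to 3′ on the strand of the gene.
Cst7: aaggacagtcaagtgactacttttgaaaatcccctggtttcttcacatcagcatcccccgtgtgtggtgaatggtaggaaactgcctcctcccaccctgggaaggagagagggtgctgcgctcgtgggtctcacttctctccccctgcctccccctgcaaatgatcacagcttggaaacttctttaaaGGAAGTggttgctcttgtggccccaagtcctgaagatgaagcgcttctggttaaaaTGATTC
Itgax: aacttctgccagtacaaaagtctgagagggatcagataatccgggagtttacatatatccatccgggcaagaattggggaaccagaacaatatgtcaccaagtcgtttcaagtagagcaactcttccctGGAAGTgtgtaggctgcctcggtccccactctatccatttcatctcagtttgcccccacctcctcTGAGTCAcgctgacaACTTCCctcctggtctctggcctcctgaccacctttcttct
Trem2: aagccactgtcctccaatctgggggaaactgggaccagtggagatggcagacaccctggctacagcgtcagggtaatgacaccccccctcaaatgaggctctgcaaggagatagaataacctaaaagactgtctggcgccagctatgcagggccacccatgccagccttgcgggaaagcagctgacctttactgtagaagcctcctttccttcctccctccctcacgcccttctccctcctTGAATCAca
Gpnmb: ggggcaagTGACTCAtgagcacgagttgtt
Axl: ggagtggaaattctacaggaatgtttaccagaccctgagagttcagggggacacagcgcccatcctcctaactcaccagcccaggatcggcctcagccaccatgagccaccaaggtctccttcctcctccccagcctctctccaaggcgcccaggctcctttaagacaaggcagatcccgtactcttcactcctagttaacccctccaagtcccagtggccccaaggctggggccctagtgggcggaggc
In Cst7 the GGAAGT match began 62 bases and the TGATTCA match 6 bases before the start, so that the last letter of the latter is the first base from the start and is not printed. In Itgax a GGAAGT match began 121 bases before the start, the TGAGTCA match 56 bases before it, and a second ETS core on the other strand 41 bases before it. In Trem2 the TGAATCA match began 9 bases before the start. In Gpnmb the TGACTCA match began at base 9 from the RefSeq start. A match is a description of the letters, not a bound site.

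The lipid genes lay far apart in level. Apoe, the main lipid-carrying apolipoprotein of the central nervous system, is made by astrocytes as well as by activated microglia. It had 586 (vehicle) and 461 RPKM (SD) in WT cord and 1975 (vehicle) and 2975 RPKM (SD) in G93A cord. Its log2 fold change of 1.75 between the vehicle libraries was the smallest of the 10, although its gain of 1389 RPKM was the largest, and between the SD libraries the log2 fold change was 2.69. Lpl, lipoprotein lipase, which releases fatty acids from triglyceride-rich particles, had 1.87 (vehicle) and 1.93 RPKM (SD) in WT cord and 24.3 (vehicle) and 20.7 RPKM (SD) in G93A cord. These are log2 fold changes of 3.70 and 3.42, and SD and vehicle libraries lay close together in each genotype. Of the 8 astrocyte markers, 4 were higher and 0 lower in the vehicle comparison of genotypes. They summed to 2179 (vehicle) and 2038 RPKM (SD) in WT cord and to 4241 and 4724 RPKM in G93A cord. Most of that gain was in Gfap, which went from 441 to 2269 RPKM between the vehicle libraries, while Slc1a2, the astrocyte glutamate transporter, had 216 RPKM in both. The part of astrocytes in the Apoe level was not tested.

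Spp1 and Axl were likewise expressed in WT cord. Spp1 encodes osteopontin, a secreted phosphoprotein that binds integrins and CD44, and it is also known from large motor neurons. It had 70.1 (vehicle) and 79.2 RPKM (SD) in WT cord and 356 (vehicle) and 446 RPKM (SD) in G93A cord, with log2 fold changes of 2.34 and 2.49. The motor neuron markers went the other way, with 5 of 8 lower and 0 higher between the vehicle libraries. They summed to 409 (vehicle) and 387 RPKM (SD) in WT cord and to 221 and 144 RPKM in G93A cord. Most of each sum was Nefh, a neurofilament gene, with 327 (vehicle) and 313 RPKM (SD) in WT cord and 160 and 99.2 RPKM in G93A cord. Isl1 was level, with 0.770 RPKM in WT vehicle and 0.806 in G93A vehicle. The part of motor neurons in the Spp1 level was not tested. Axl, a receptor tyrosine kinase through which phagocytes recognise dying cells, had 13.3 (vehicle) and 13.2 RPKM (SD) in WT cord and 46.6 (vehicle) and 52.6 RPKM (SD) in G93A cord, with log2 fold changes of 1.81 and 1.99. It was the only member with several rows, and its 3 transcripts lay between 13.1 and 13.4 RPKM in WT vehicle and between 46.0 and 47.5 in G93A vehicle. Spp1 is the only member whose annotated exons overlap another gene. It shares 309 of its 1648 exonic bases with Gm42793, an unconfirmed gene model on the same strand, so reads there could belong to either.

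**Figure D2:**
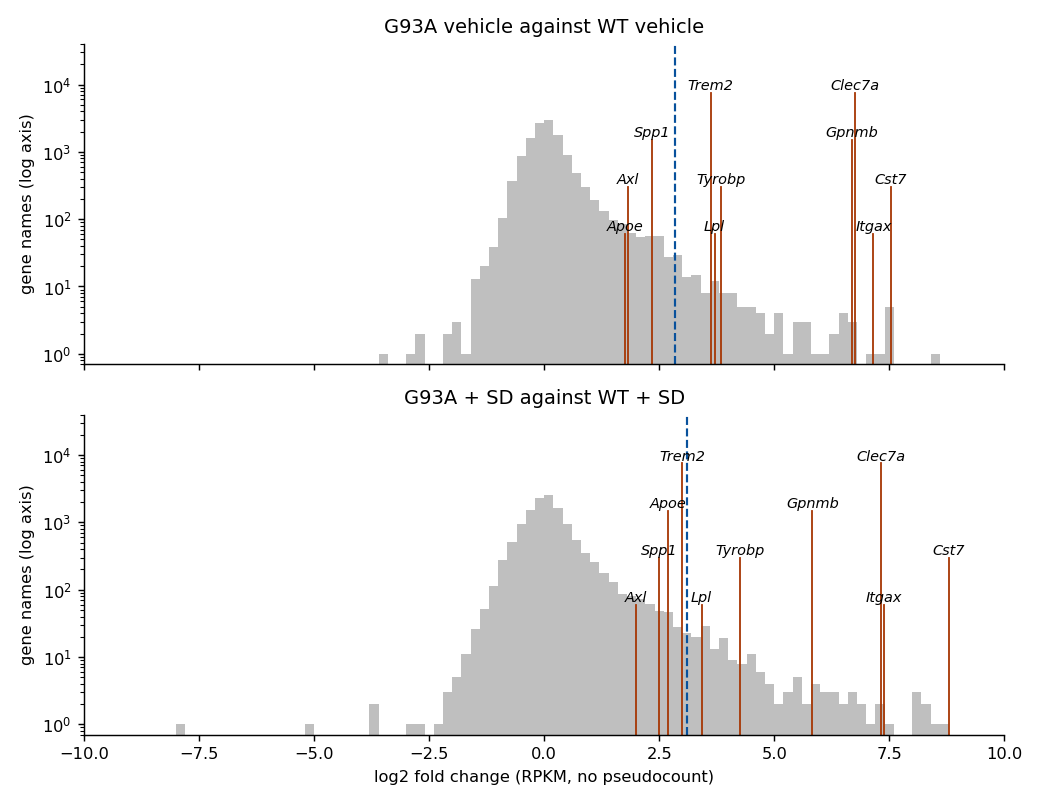
Log2 fold change of G93A against WT without a pseudocount, for the vehicle libraries (top) and the SD libraries (bottom). Grey bars count names with a mean of at least 1 RPKM (log axis), red lines mark the 10 genes and the blue dashed line marks 11 pan-microglial genes (2.84 and 3.11), with Cst7, Itgax, Clec7a and Gpnmb far to the right of that line in both panels and Apoe, Axl and Spp1 to its left.

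In GRCm38, by the GENCODE M21 annotation, Tyrobp (chr7:30413760-30417585), Itgax (chr7:128129547-128150657), Apoe (chr7:19696109-19699188) and Axl (chr7:25757273-25788705) lie on chromosome 7, the last 2 on the minus strand. Clec7a (chr6:129461591-129472779, minus strand) and Gpnmb (chr6:49036546-49070929) lie on chromosome 6. Trem2 (chr17:48346401-48354147), Lpl (chr8:68880491-68907448), Cst7 (chr2:150570415-150578944) and Spp1 (chr5:104435118-104441050) lie on chromosomes 17, 8, 2 and 5. The members thus do not form 1 cluster. Among the 17173 names above 0 in both vehicle libraries, the members ranked between 7th (Cst7) and 905th (Apoe) from the top by fold change. Among the 17215 names above 0 in both SD libraries they ranked between 1st (Cst7) and 935th (Axl). Gpnmb ranked 15th in the former and 44th in the latter.

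The level of other microglial genes was set beside these values. Of the 12 pan-microglial and macrophage markers chosen, 11 were in the table, and 11 of 11 were higher in both genotype comparisons. Their geometric mean was 9.04 (vehicle) and 7.68 RPKM (SD) in WT cord and 64.8 and 66.3 RPKM in G93A cord, which is 7.17-fold higher between the vehicle libraries and 8.64-fold between the SD libraries. Csf1r, the receptor for the growth factor that microglia depend on, was 3.34-fold and 3.68-fold higher, and Cd68, a lysosomal membrane protein, went from 3.75 to 85.2 RPKM between the vehicle libraries. Divided by the geometric mean of the same library, Cst7 was 25.9-fold higher between the vehicle libraries, Itgax 19.8-fold, Clec7a 15.2-fold and Gpnmb 14.4-fold. Between the SD libraries the same 4 genes were 51.5-fold, 19.4-fold, 18.6-fold and 6.58-fold higher. Tyrobp was 2.01-fold and 2.22-fold higher by this measure. Trem2 was 1.71-fold higher between the vehicle libraries but stood at 0.923 of the WT ratio between the SD libraries, and Lpl was at 1.82 and 1.24. Relative to the list, but not to Csf1r alone or, for Spp1 between the vehicle libraries, to Aif1 alone, Apoe, Axl and Spp1 were lower in G93A than in WT cord. They stood at 0.470, 0.490 and 0.707 of their WT vehicle ratio in G93A vehicle, and at 0.748, 0.461 and 0.651 of their WT + SD ratio in G93A + SD. In all, 7 of the 10 genes were at least 1.5-fold higher and 2 lower by this measure between the vehicle libraries, beside 4.36% and 93.6% of all names. Between the SD libraries 5 were higher and 2 lower, beside 4.72% and 93.2%. Most names are lower by this measure because the reference itself is higher in G93A cord. With Csf1r alone as the reference 8 were higher and 0 lower between the vehicle libraries, beside 6.26% and 87.9% of all names, and 9 and 0 between the SD libraries, beside 6.96% and 87.3%. With Aif1, a calcium-binding protein of microglia, 7 were higher and 0 lower (5% and 91.6% of all names), and between the SD libraries 6 and 1 (5.29% and 91.9%).

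**Figure D3:**
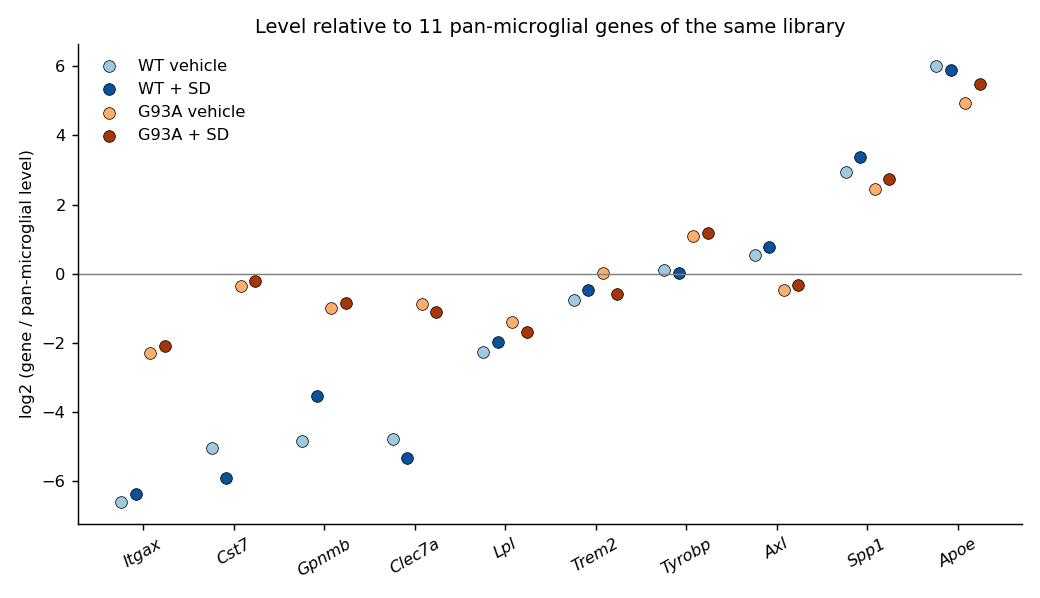
Log2 of each gene's level over the geometric mean of 11 pan-microglial genes in the same library, 1 point per library, genes ordered as in the plot of levels. For Itgax, Cst7, Gpnmb and Clec7a the G93A points lie far above the WT points, for Axl, Spp1 and Apoe they lie below, and for Trem2 the G93A + SD point lies between the WT points.

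Most homeostatic genes were higher too. Of 10, 8 were higher and 0 lower in both genotype comparisons, with medians of 0.84 and 1.26 on the log2 scale, and the ratios differed widely within the list. P2ry12, an ADP receptor that marks surveying microglia, had 15.9 (vehicle) and 16.1 RPKM (SD) in WT cord and 16.7 (vehicle) and 19.6 RPKM (SD) in G93A cord. Cx3cr1, the fractalkine receptor, had 14.1 (vehicle) and 12.6 RPKM (SD) in WT cord and 41.7 (vehicle) and 47.9 RPKM (SD) in G93A cord. The level of P2ry12 differed less than 1.5-fold between genotypes, while Clec7a was 109-fold and 161-fold higher in the same libraries. Fcrls, an Fc receptor-like gene of microglia, had 1.61 (vehicle) and 2.07 RPKM (SD) in WT cord and 16.9 (vehicle) and 45.4 RPKM (SD) in G93A cord. It was thus 10.5-fold and 22.0-fold higher, above Apoe, Axl and Spp1 in both comparisons and above Trem2, Tyrobp and Lpl between the SD libraries.

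Markers of other immune cells were low but in part moved with the members. Of the 6 monocyte and neutrophil markers in the table, 5 were higher and 1 lower between the vehicle libraries, and 0 were higher and 2 lower between the SD libraries. They summed to 0.952 (vehicle) and 1.12 RPKM (SD) in WT cord and to 2.51 and 0.929 RPKM in G93A cord, and Ccr2, which defines inflammatory monocytes, reached 0.135 RPKM at most. Of the 4 T cell markers, 4 were higher between the vehicle and 3 between the SD libraries, at sums of at most 0.336 RPKM. Of the 6 border macrophage markers, 2 and 4 were higher, at sums of at most 3.43 RPKM. The part of these cells in the members' levels was not tested. Of the 6 dendritic cell markers, 3 (Xcr1, Cd209a and Ccr7) were higher and 2 (Flt3 and Clec9a) lower between the vehicle libraries, and 1 was higher and 2 lower between the SD libraries. Xcr1, Cd209a and Ccr7 were at or below 0.0657 RPKM in every library and Clec9a at or below 0.176. Flt3 made up most of their sum, with 5.72 RPKM in WT vehicle and 3.74 in G93A vehicle. Their part in the level of Itgax was not tested.

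The wider disease-associated signature is usually split into an early part that does not need TREM2 and a later part that does. Of the 8 genes listed for the early part, 6 were higher between the vehicle libraries, with a median log2 fold change of 1.73, and of the 13 genes of the later part in the table, 12 were, with a median of 3.30. Both lists include members, Tyrobp and Apoe in the early one and Trem2, Axl, Cst7, Lpl, Itgax and Clec7a in the later one. The medians, the later one most, therefore in part repeat the members' own values. Lyz2, lysozyme, went from 4.64 to 509.7 RPKM and Ctsd, cathepsin D, from 186 to 1545 RPKM. Fth1, ferritin heavy chain, and Timp2, a metalloproteinase inhibitor, did not reach 1.5-fold, with 4872 and 6194 RPKM for Fth1 and 125 and 142 for Timp2. The placing of Timp2 in the early list is a choice made here, and the counts and medians of both lists depend on it. In the later list Cadm1, an adhesion molecule, had 23.8 RPKM in WT vehicle and 23.0 in G93A vehicle. Between the SD libraries the counts were 6 and 12 again, and the medians lay closer together, at 2.658 and 2.995.

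Downstream of the receptors, 12 of the 14 listed genes of TREM2 and TYROBP signalling in the table were higher in both genotype comparisons, with medians of 2.02 and 2.09. Hcst, a sister adaptor of TYROBP, went from 0.0411 RPKM in WT vehicle to 1.09 in G93A vehicle, and Ms4a6d from 0.524 to 6.68. Adam17, a protease that can shed TREM2, went from 7.45 to 11.8, a ratio of 1.58, and Adam10, which does the same, from 22.7 to 30.6, a ratio of 1.35. Of the 5 genes listed for CLEC7A signalling, 3 were higher, with a median of 0.66, far below the 6.77 of the receptor gene itself. Prkcd, a kinase of that pathway, went from 6.34 to 14.5 RPKM.

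**Figure D4:**
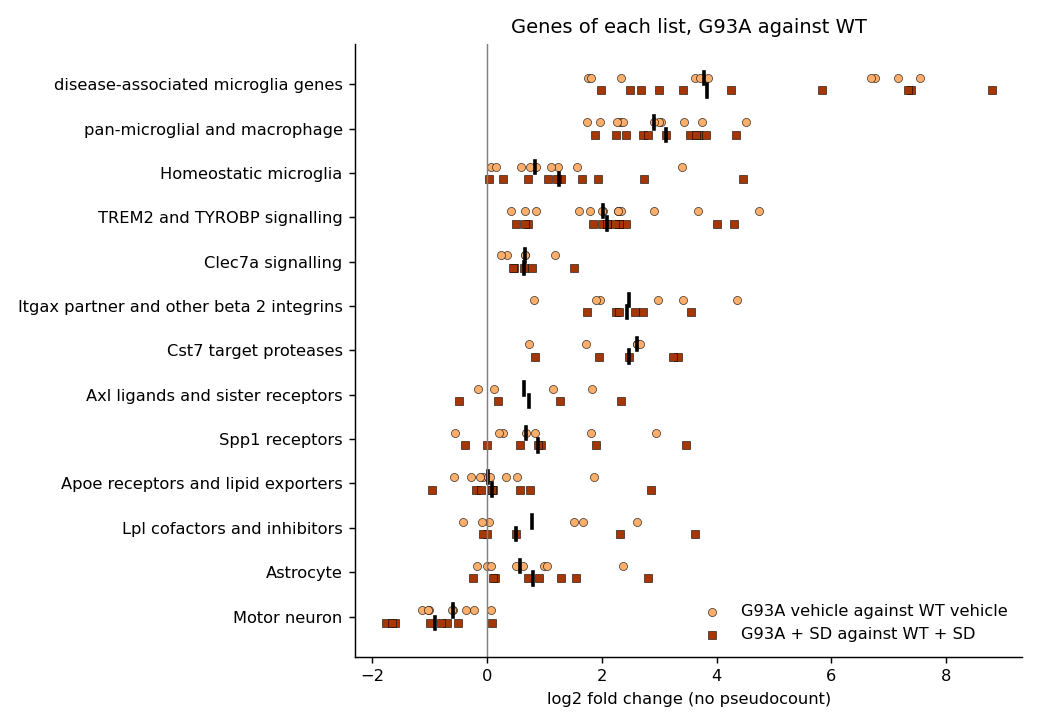
Log2 fold change of G93A against WT for the genes of each list, with circles for the vehicle libraries and squares for the SD libraries; black bars are medians and names at 0 in either library are left out. The 10 genes have the highest medians (3.78 and 3.84), and the list of Apoe receptors and lipid exporters has medians near 0 (0.018 and 0.081).

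Partners of the members differed in how far they followed. All 6 genes listed with Itgax, which are 4 other integrin chains, the integrin ligand gene Icam1 and Fermt3, whose product activates integrins, were higher. Among them Itgal, with 0.0475 RPKM in WT vehicle and 0.977 in G93A vehicle, and Itgad, with 0.0965 and 0.170, were below 1 RPKM in all 4 libraries. Itgb2, the beta chain with which CD11c pairs, went from 2.04 RPKM in WT vehicle to 21.7 in G93A vehicle, with 1.81 and 21.4 RPKM in WT + SD and G93A + SD. Itgam, the alpha chain CD11b, went from 5.27 to 20.6 between the vehicle libraries. All 5 lysosomal proteases listed as targets of cystatin F were higher in both comparisons. Ctsc, cathepsin C, went from 2.52 to 15.5 RPKM and Ctss, cathepsin S, from 50.4 to 320, but Lgmn, legumain, only from 86.4 to 143. None of these approached the ratio of Cst7.

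For Axl, 2 of its 4 listed ligands and sister receptors were higher. The ligand gene Pros1 went from 8.72 RPKM in WT vehicle to 31.0 in G93A vehicle and the sister receptor Mertk from 3.34 to 7.45. The other ligand gene, Gas6, had 44.6 and 48.4, and Tyro3 had 21.7 and 19.5, neither of which reached 1.5-fold. For Spp1, 4 of 7 receptor genes were higher, led by Cd44, which went from 3.60 to 27.8 RPKM, and Itgb5, from 15.1 to 53.2, while Itgb3 had 1.71 and 1.17. For Apoe, 1 of 9 receptors and exporters was higher between the vehicle libraries. It was Abca1, which loads lipid onto APOE, with 4.90 (vehicle) and 4.39 RPKM (SD) in WT cord and 17.9 (vehicle) and 31.9 RPKM (SD) in G93A cord. For Lpl, 3 of 6 were higher. Apoc2, which encodes the activator of the lipase, counts among them at 0.0177 RPKM in WT vehicle and 0.0510 in G93A vehicle, levels near 0. It was listed at 0 in WT + SD and had 1.72 RPKM in G93A + SD. Apoc1, a lipase inhibitor whose gene neighbours Apoe, went from 3.34 to 10.7 RPKM, Angptl4, an inhibitor of lipoprotein lipase, from 0.461 to 2.83, and Lmf1, a maturation factor of the lipase, had 8.14 and 8.37.

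SD was compared with vehicle within each genotype. In G93A cord, 1 of the 10 genes, Apoe, was at least 1.5-fold higher in G93A + SD, beside 8.89% of the 18300 names, and 0 were lower, beside 7.46%. Among names with a mean of at least 1 RPKM, which all 10 genes had, the shares were 1.34% and 1.04%. At 2-fold 0 were called, beside 5.56% and 5.08%. The median log2 fold change of the 10 genes was 0.17, against 0.012 over all names, with 7 above 0 and 3 below. Apoe, with a ratio of 1.51, lay just inside the threshold. Trem2 lay just outside it on the other side, at 1.48-fold lower, which is a log2 fold change of -0.57. The other genes lay between -0.24 (Lpl) and 0.32 (Spp1). By this fold change Apoe ranked 170th from the top and Trem2 147th from the bottom of the 12987 names that averaged 1 RPKM or more. When the libraries were scaled by median ratios, the log2 fold change of Apoe was 0.58 and it was no longer called.

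Other genes differed between the G93A libraries beside these. Abca1 was 1.78-fold higher in G93A + SD, and Apoc2 33.7-fold from a level near 0. Among the pan-microglial genes 1 of 11 was called, Fcer1g, an adaptor of Fc receptors related to TYROBP, which was lower, with 52.0 RPKM in G93A vehicle and 29.2 in G93A + SD. In WT cord it was lower with SD as well, at 2.07 against 3.89 RPKM. The geometric mean of the pan-microglial genes hardly differed, at 64.8 and 66.3 RPKM. Of the 10 homeostatic genes 2 were higher, among them Fcrls, with 16.9 RPKM in G93A vehicle and 45.4 in G93A + SD. Of the motor neuron markers 3 of 8 were lower in G93A + SD, of the 6 monocyte and neutrophil markers 5 were lower and 1 higher at sums of 2.51 and 0.929 RPKM, and of the astrocyte markers 0 of 8 passed the threshold. Their part in the values of Apoe and Trem2 was not tested.

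**Figure D5:**
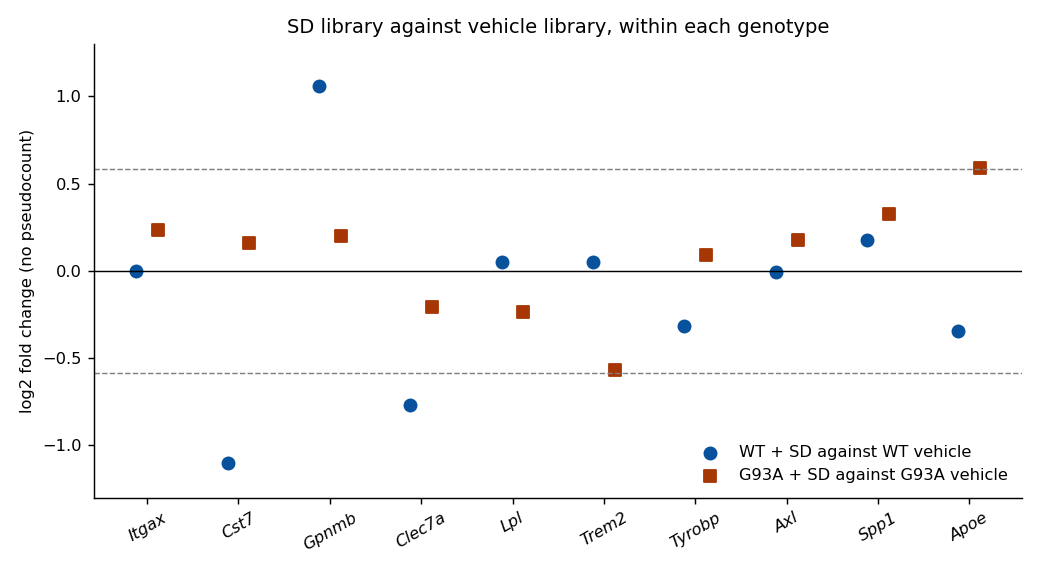
Log2 fold change of the SD library against the vehicle library for each gene, circles for WT and squares for G93A; dashed lines mark 1.5-fold in either direction. Among squares, Apoe lies just past the upper line and Trem2 just short of the lower one; among circles, Gpnmb lies above and Clec7a and Cst7 below.

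In WT cord, Gpnmb was at least 1.5-fold higher with SD, with a ratio of 2.08, beside 7.4% of 18112 names. Cst7 and Clec7a were lower, 2.14-fold and 1.70-fold, beside 8.82%. At 2-fold, where Gpnmb and Cst7 were called, the shares were 5.11% and 5.89%. Of names averaging 1 RPKM or more over the 4 libraries they were 0.909% and 1.36%, but these 3 genes pass that filter only through the G93A libraries, so their WT calls cannot be read against it. The other 7 genes were called in neither direction, and the median of the 10 was -0.0033 on the log2 scale, against 0.011 over all names. The 3 called genes were, together with Itgax, the members below 1 RPKM in WT cord. With a pseudocount of 1 RPKM 0 of them were called. Tyrobp, at 7.76 against 9.67 RPKM, and Apoe, at 461 against 586, were lower with SD by less than 1.5-fold. Markers of blood differed between these libraries. The red blood cell genes summed to 17.8 RPKM in WT vehicle and 35.7 in WT + SD, with 3 of 3 higher. Their part in the WT values of Gpnmb, Cst7 and Clec7a was not tested.

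The genes of the table whose profile over the 4 libraries was nearest to the mean profile of the 10 were Cd68, Bcl2a1b, Ly9, Cd52 and Atf3. Nearness was the Euclidean distance between log2 values (pseudocount of 0.1 RPKM) centred on each gene's own mean, among names that averaged 1 RPKM or more. The distances were 0.16, 0.20, 0.26, 0.30 and 0.30. With 4 libraries this is close to a ranking by how near a gene's difference between genotypes lies to the members' mean difference. Cd52, a small surface glycoprotein of leukocytes, had 1.71 (vehicle) and 1.31 RPKM (SD) in WT cord and 31.1 (vehicle) and 28.0 RPKM (SD) in G93A cord. Atf3, a transcription factor induced by stress and nerve injury, had 0.606 (vehicle) and 0.760 RPKM (SD) in WT cord and 14.2 (vehicle) and 17.5 RPKM (SD) in G93A cord. Of the members, Tyrobp lay nearest to the mean profile, at 0.36, and Cst7 farthest, at 3.20.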

How the data were processed

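RNA-seq of lumbar spinal cord was deposited by the authors as 1 table of 23750 RefSeq transcripts with 1 column for each of the 4 libraries. The methods name polyA selection, 53 bp reads, STAR, GRCm38 and HTSeq with Ensembl genes. The deposited values were taken as RPKM, because their product with transcript length gave similar totals for the libraries. Similar totals alone do not fix the unit, and the step that gave the values is not stated. The 3 ratio columns of the authors were not used. The mean of a name's rows was used, without a pseudocount or filter, and a name at 0 in 1 of the 2 libraries counted as called. Transcript lengths came from GENCODE M21. The commonest low value multiplied by length was read as 1 read pair, which puts the depth at between 36800000 (WT vehicle) and 38600000 (G93A + SD) pairs. These are estimates that rest on the inferred unit, and no interval was derived from them. The methods name paired end adaptors but do not say that both ends were read, so a pair may stand for a single read.

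Genes and lists were chosen with earlier results of these data known. Listed genes named here are mostly the 3 highest of a list and those with the 2 largest and 2 smallest differences; others were chosen after their values were seen (Apoc2, Ccr7, Xcr1). Alternatives were median-ratio scaling, pseudocounts of 0.1 and 1, a mean of at least 1 RPKM, the highest or the summed row, a 2-fold threshold and Csf1r or Aif1 as reference. A minimum of 20 estimated read pairs was added after seeing the data. Calculations used pandas 2.3.3 with numpy 2.4.6 under Python 3.11.15, plots used matplotlib 3.10.9, and the calls were tested on simulated data.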

Additional observations from a re-analysis of the deposited data

Results flagged for a closer look

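The SD comparison pointed in opposite directions in WT and G93A cord for 2 of the genes with at least 1 of the differences past 1.5-fold. Apoe had a log2 fold change of -0.35 with SD in WT and of 0.59 in G93A, a difference of 0.94. Cst7 had -1.10 in WT, where about 9.89 and 4.81 read pairs were estimated behind its values, and 0.16 in G93A, a difference of 1.26. With 1 library per condition neither difference was tested.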

How the results depend on the processing

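The calls of all 10 genes as higher in G93A held under every alternative, in both the vehicle and the SD libraries. The SD comparisons moved. In WT, the genes lower in WT + SD numbered 2 as reported and 1 with a pseudocount of 0.1 RPKM (Cst7), 1 at a 2-fold threshold (Cst7), 1 with at least 20 estimated read pairs (Cst7 and Itgax then being left out) and 0 with a pseudocount of 1 RPKM, under which the genes higher numbered 0 as well, against 1 as reported. In G93A, the 1 gene higher, Apoe, became 0 with median-ratio scaling and 0 at a 2-fold threshold. Relative to a microglial reference, the genes lower in the vehicle libraries numbered 2 with the pan-microglial list, 0 with Csf1r and 0 with Aif1. In the SD libraries 9 were higher with Csf1r, against 5, and 0 were lower with Csf1r and 1 with Aif1, against 2. Among called values, signs turned with Csf1r for Apoe (0.013 on the log2 scale against -1.09) and Axl (0.073 against -1.03) in the vehicle libraries, and for Spp1 (0.61 against -0.62) and Axl (0.11 against -1.12) in the SD libraries, because Csf1r differs less between genotypes than the list. No paired analysis was possible because each group has 1 library. Depth limits the WT values of Cst7, Itgax and Clec7a most.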
